A study of Mus musculus with 51 samples.

Results

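Fore-limb buds of E11.5 (E, embryonic day) were compared with hind-limb buds of E12.5, on 4 and 5 arrays, which are 9 of the 51 arrays of the series. The arrays were chosen by the tissue and day in their titles. The series profiled total RNA of fore limbs, hind limbs and whole embryos of wild-type FVB mice, with no treatment or transgene, by 1 embryo per array on an Affymetrix mouse whole-genome array. Both groups hold whole limb buds, so each value is an average over mesenchyme, ectoderm, muscle precursors, vessels and the blood inside them, and a lower value cannot be told apart between fewer cells of a type and less RNA per cell. All embryos of a day came from 1 litter, so that day and litter cannot be told apart, and the p-values measure the spread between littermates.

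Fore limbs and hind limbs form from the same kinds of tissue by the same signals, and the fore-limb bud starts first. A small set of transcription factors is known to set them apart, with Tbx5 acting in the fore limb and Pitx1, Tbx4 and, at the start of the bud, Isl1 in the hind limb, while Hox genes mark the position of each limb along the trunk. Genes of cartilage, tendon and muscle differentiation come on as either bud grows older. Taking the hind limb 1 day later makes it the older of the pair. The authors describe hind-limb development as delayed by less than 1 day, so the pair lies less than 1 day apart in development. The question of the comparison was which limb differences of the same day persist against an older hind limb, and which flip.

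Differences are on the log2 scale, fore limb minus hind limb, so that 1 is a 2-fold change and a positive value is higher in the fore limb. Each is given with its standard error (SE) from 1 limma fit over all 14 groups of tissue and day. A gene was called where it changed at least 2-fold and its p, adjusted by Benjamini-Hochberg over the 18194 genes measured, was under 0.001. The offset comparison (E11.5 fore limb against E12.5 hind limb) was set beside the E11.5 comparison, which uses the same 4 fore-limb arrays, and the E12.5 comparison, which uses the same 5 hind-limb arrays. Because arrays are shared, the counts of persisting and flipped genes are descriptions. The difference between the offset and the E11.5 comparison equals the change in the hind limb from E11.5 to E12.5, and that between the offset and the E12.5 comparison the same change in the fore limb. Both steps were tested.

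Some arrays stood apart. E12.5 hind-limb replicate 1 lay toward the younger day, with the erythroid gene Hemgn at a log2 intensity of 5.13 against 3.86 to 4.45 in the other 4. Without it, 67 genes were called in place of 51, of which 38 were higher and 29 lower. E11.5 hind-limb replicate 5 and E12.5 fore-limb replicate 5, which enter the same-day comparisons, carry other labels that name another tissue or day than their titles. The former read Tbx5 at 5.75, Pitx1 at 10.65 and Hemgn at 7.85, like the other hind limbs of E11.5, and the latter Tbx5 at 9.77 and Pitx1 at 5.52, like the other fore limbs. Neither is in the offset comparison. Without both, 51 genes were called higher and 17 lower at E11.5, in place of 57 and 18, and 73 higher and 7 lower at E12.5, in place of 84 and 8. Pairs of arrays within the E11.5 fore limb correlated at 0.994 to 0.997 and within the E12.5 hind limb at 0.995 to 0.998.

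In the offset comparison 51 genes were called, 0.28% of those tested. Of these, 35 were higher in the E11.5 fore limb (0.192%) and 16 were higher in the E12.5 hind limb (0.0879%). The arrays of the groups did not overlap in 50 of the 51, Dner being the exception, against 14.4% of all genes. The E11.5 comparison called 57 genes higher (0.313%) and 18 lower (0.0989%), and the E12.5 comparison 84 higher (0.462%) and 8 lower (0.044%).

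Of the 51 genes, 13 persisted, meaning that they were called in the same direction in the offset, the E11.5 and the E12.5 comparison. 7 were higher in the fore limb (Tbx5, Hoxc5, Hoxc4, Nostrin, Hoxc6, Hoxb2 and Dner) and 6 in the hind limb (Pitx1, Hoxc10, Tbx4, Calb2, Isl1 and Hoxc9). Of the 8 measured genes listed as known to differ between limb types, all 8 were among these 13, with 3 higher and 5 lower in the fore limb. The list was chosen for its known direction, so this count checks the tissues more than it finds anything.

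Tbx5, the T-box factor that starts the fore-limb bud, read 9.72, 9.53, 8.42 and 9.94 in the E11.5 fore limbs. It read 5.91, 5.76, 6.08, 6.27 and 6.22 in the E12.5 hind limbs. The groups were far apart, although E11.5 fore-limb replicate 3 was the lowest of the fore limbs. That array also had a higher ratio of 3′ to 5′ signal for Actb, at 0.696 log2 against 0.201 to 0.266 in the other 8 arrays, and the part of this in the Tbx5 value was not tested. The offset difference was 3.35 ± 0.17 (SE, adjusted p = 1.89e-19), against 3.80 at E11.5 and 3.67 at E12.5. The hind-limb step was -0.44 (adjusted p = 0.0475) and the fore-limb step -0.31 (adjusted p = 0.276).

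Pitx1, the homeobox factor of the hind limb and lower jaw, gave the largest difference. It read 5.24, 5.14, 5.45 and 5.26 in the E11.5 fore limbs and 10.76, 10.42, 10.73, 10.69 and 10.71 in the E12.5 hind limbs. The difference was -5.39 ± 0.16 (adjusted p = 9.06e-28), and it was -5.44 at E11.5 and -5.41 at E12.5. Between the days the step was 0.04 in the hind limb (adjusted p = 0.891) and 0.01 in the fore limb (adjusted p = 0.977).

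Tbx4, the T-box factor of the hind limb, read 6.83, 6.82, 6.69 and 6.79 in the fore limbs against 9.82, 9.49, 9.53, 9.55 and 9.64. Its offset difference of -2.82 ± 0.10 was smaller than the -3.32 at E11.5, since the hind-limb level was 0.50 lower at E12.5 than at E11.5 (adjusted p = 2.21e-04). Isl1, a LIM homeobox factor of the early hind-limb field, read 6.50, 5.76, 6.15 and 6.51 against 8.38, 8.16, 8.22, 7.59 and 7.74. Its difference was -1.79 ± 0.21 in the offset comparison and -2.29 at E11.5. The hind-limb step of 0.50 missed the threshold at an adjusted p of 0.0796.

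The persisting HoxC genes split by position. Hoxc4, Hoxc5 and Hoxc6, which are expressed from the level of the fore limb, persisted as higher in the fore limb, while the more caudal Hoxc9 and Hoxc10 persisted as higher in the hind limb. Hoxc10 read 5.31, 5.23, 5.36 and 5.16 in the fore limbs and 10.44, 10.29, 10.26, 9.84 and 9.94 in the hind limbs, a difference of -4.89 ± 0.26 (adjusted p = 1.52e-18). Hoxc5 read 8.44, 8.43, 8.15 and 8.30 against 5.69, 5.67, 5.70, 5.56 and 5.68, a difference of 2.67 ± 0.22 (adjusted p = 2.46e-12). The groups were apart in each of the 5 genes. The differences of the others were 2.06 ± 0.21 for Hoxc4, 1.23 ± 0.17 for Hoxc6 and -1.50 ± 0.10 for Hoxc9. Between the days none of the 5 changed past the threshold in either limb, and the steps ranged from -0.50 in the fore limb for Hoxc5 to 0.56 in the fore limb for Hoxc10. Hoxc8 and Hoxc13, the other HoxC genes measured, were not called on either day or in the offset comparison. Hoxc8 read -0.73 in the offset comparison and -1.09 at E11.5. Hoxc13, more caudal than Hoxc10, lay on the side of the fore limb, at 0.45, and at 0.76 at E11.5 and 0.21 at E12.5. The split thus did not extend to every HoxC gene measured.

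**Figure D1:**
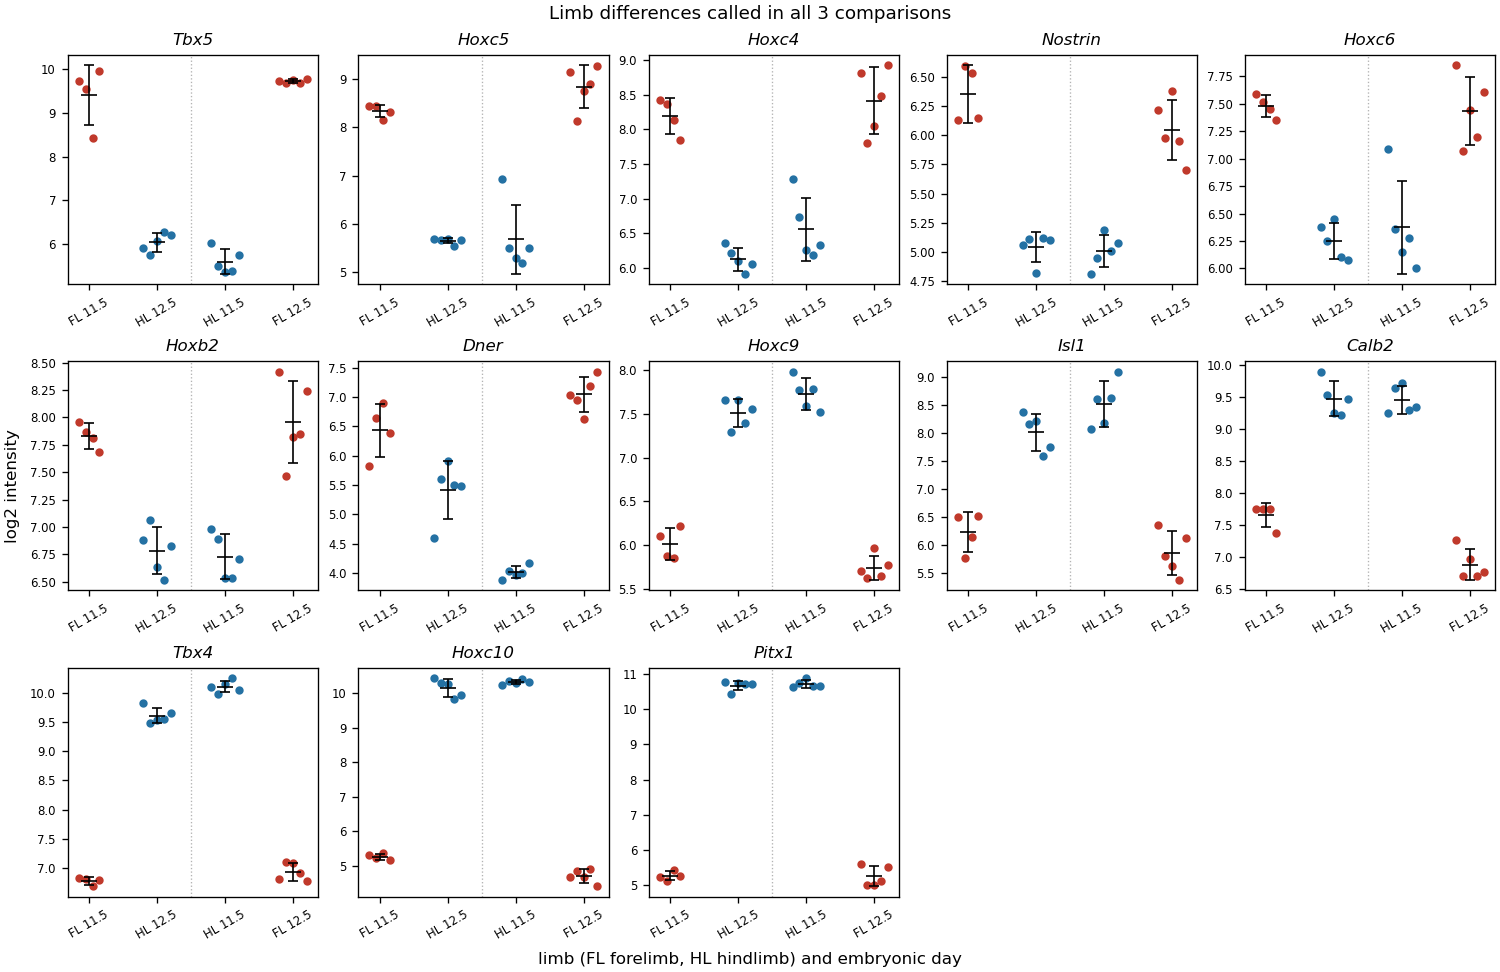
Log2 intensity (vertical axis) of the 13 persisting genes in each array (points) of 4 groups, with the mean and SD as bars; red is fore limb (FL), blue hind limb (HL), and the pair of the offset comparison stands left of the dotted line. Left of the line the limbs lie apart in 12 of the 13 panels, most widely for Pitx1 (-5.39), and overlap in that of Dner (1.02).

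The other 4 persisting genes are no part of the limb type list. Calb2, which encodes the calcium-binding protein calretinin, read 7.75, 7.75, 7.75 and 7.37 in the fore limbs and 9.90, 9.53, 9.25, 9.21 and 9.47 in the hind limbs. The difference was -1.82 ± 0.18 (adjusted p = 4.52e-10), beside -1.80 at E11.5 and -2.59 at E12.5. Nostrin, which encodes a protein that moves endothelial nitric oxide synthase within the cell, differed by 1.31 ± 0.14 and Hoxb2, an anterior Hox gene, by 1.05 ± 0.17. Hoxb2 was no longer called without E12.5 hind-limb replicate 4, at 0.98, under quantile normalization or with a replicate block.

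Dner, which encodes a transmembrane ligand of Notch with EGF repeats, was the persisting gene nearest to losing its call. It read 5.83, 6.63, 6.89 and 6.38 in the fore limbs and 4.60, 5.60, 5.91, 5.49 and 5.48 in the hind limbs, and the lowest fore limb lay below the highest hind limb. Its difference shrank from 2.42 at E11.5 to 1.02 ± 0.19 in the offset comparison, as the hind-limb level rose by E12.5 (step -1.41, adjusted p = 1.25e-07). The call was lost without any 1 of fore-limb replicates 2, 3 and 4 and hind-limb replicates 1 and 4, where the difference ranged from 0.81 to 1.04. Among other settings, it was also lost under quantile normalization, median centring and array weights.

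Arrays of E10.5 and E13.5, which had no part in choosing these genes, gave the same direction for 12 and for 13 of the 13, and 8 of the 13 were called at each of these days. The share of all genes called in the same comparisons was 0.566% at E10.5 and 0.286% at E13.5. Tbx5, Hoxc4, Hoxc5, Pitx1, Hoxc10, Tbx4 and Isl1 were called at both days. Hoxc9 was called at E10.5 (-1.96) and missed the fold at E13.5 (-0.86, adjusted p = 3.15e-08), and Hoxb2 was called at E13.5 (1.25) and read 0.39 at E10.5. Calb2 was the exception in sign. It was higher in the fore limb at E10.5 by 0.94 (adjusted p = 1.37e-04), and at E13.5 the difference was -0.24 (adjusted p = 0.506). Dner read 0.01 at E10.5, when both limbs were near 3.6, and 0.60 at E13.5.

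The opposite offset, E12.5 fore limb against E11.5 hind limb, shares no array with the offset comparison, although its arrays took part in choosing the persisting genes. There the fore limb is the older by 1 day of age, and by more in development. It called 339 genes higher (1.86%) and 75 lower (0.412%), and all 13 persisting genes were among these in their own direction. Each difference here equals the E11.5 plus the E12.5 difference minus the offset difference. The persisting genes were chosen by those same comparisons, so this count is a description and no separate check. Tbx5 differed by 4.11, Pitx1 by -5.45, Calb2 by -2.57 and Dner by 3.03.

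Another 3 genes were called in the offset and in the E12.5 comparison, and fell short of 2-fold at E11.5. Hoxb5, an anterior Hox gene, was higher in the fore limb by 1.57 ± 0.28, beside 1.53 at E12.5 and 0.98 at E11.5, and its call was lost without E11.5 fore-limb replicate 1 or 2. Dmrt2, a transcription factor with a DM domain, was lower by -1.49 ± 0.23, beside -1.11 and -0.82. Ifi204, an interferon-inducible gene, was lower by -1.32 ± 0.21, beside -1.01 and -0.84. Ifi204 was also lower at E10.5 (-2.16) and E13.5 (-1.57).

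Hoxd9, a posterior Hox gene of the proximal limb, was called in the offset comparison alone. It read 10.34, 10.21, 10.44 and 10.22 in the E11.5 fore limbs against 9.31, 9.27, 9.15, 9.01 and 8.93 in the E12.5 hind limbs, a difference of 1.17 ± 0.13 (adjusted p = 1.98e-08). At each day it was higher in the fore limb by less than 2-fold (0.67 at E11.5, adjusted p = 5.55e-04, and 0.67 at E12.5, adjusted p = 2.25e-04). It was also higher at E11.5 than at E12.5 in each limb, by 0.49 in the hind limb and 0.50 in the fore limb. Limb and day thus added up in the same direction. Among the 11 measured posterior HoxA and HoxD genes, Hoxd9 alone was called and the median difference was 0.14, against 0.01 over all genes. Hoxd10 read 1.00, just short of 2-fold (adjusted p = 2.93e-12), Hoxd11 0.96 ± 0.11 (adjusted p = 3.14e-08), and Hoxd13 0.04 ± 0.16 (adjusted p = 0.925).

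Of the 51 genes, 34 were called in neither same-day comparison, 27 higher in the E11.5 fore limb and 7 higher in the E12.5 hind limb. Most followed the day and not the limb. Of the 27, 19 were also called as higher at E11.5 than at E12.5 in both limbs, and of the 7, 3 were called as lower. The steps themselves called 44 genes higher (0.242%) and 106 lower (0.583%) at E11.5 in the hind limb, and 30 higher (0.165%) and 109 lower (0.599%) in the fore limb.

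Genes of red blood cells and their precursors led this group. The first red cells of the mouse embryo arise in the yolk sac, enter the circulation while still nucleated, and lose their erythroid transcripts as they mature, while the liver starts to form the definitive line. Of 12 measured erythroid genes, 8 were called higher in the E11.5 fore limb than in the E12.5 hind limb and 0 lower, with a median of 1.41 against 0.01 over all genes. The same list had medians of 0.15 at E11.5 and 0.11 at E12.5, where limma called 0 genes, and 0 and 1 were higher at an unadjusted p under 0.05. The step in the hind limb called the same number, 8 of 12, with a median of 1.21, and that in the fore limb 8, with a median of 1.22.

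Hemgn, which encodes a nuclear protein of blood precursors, had the largest positive difference of all genes. It read 8.75, 7.69, 8.23 and 8.31 in the fore limbs and 5.13, 4.27, 4.45, 3.86 and 4.05 in the hind limbs, a difference of 3.89 ± 0.27 (adjusted p = 1.49e-14). The groups were far apart, and within each day the limbs differed by only 0.37 (E11.5, adjusted p = 0.62) and 0.10 (E12.5, adjusted p = 0.854). In whole embryos, with 2 arrays a day, the mean of Hemgn was 10.03 at E11.5 and 10.88 at E12.5, so that it did not fall there between these days. The whole-embryo arrays had a 3′ to 5′ signal of Gapdh of 1.85 to 2.85 log2, against -0.096 to 0.049 in the 9 limb arrays, so their levels are not set against those of the limbs.

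Rhag, the Rh-associated glycoprotein of the red cell membrane, read 6.99, 6.94, 7.26 and 6.91 against 4.87, 4.67, 4.40, 4.02 and 4.22. The difference was 2.59 ± 0.24 (adjusted p = 9.28e-11). Klf1, the transcription factor that drives erythroid genes, read 8.22, 7.80, 7.96 and 8.28 against 6.57, 5.83, 5.69, 5.86 and 5.72, a difference of 2.13 ± 0.21 (adjusted p = 4.83e-10). The highest hind limb was replicate 1 in both genes. In whole embryos the mean of Rhag was 6.20 at E11.5 and 8.52 at E12.5 and that of Klf1 8.30 and 9.41, higher on the later day. The whole-embryo step was not tested.

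The globins were not alike. Hbb-bh1, an embryonic beta-like globin, read 13.72, 13.52, 13.74 and 13.69 against 12.34, 12.09, 11.63, 11.67 and 11.62, a difference of 1.80 ± 0.15 (adjusted p = 5.40e-12). Hba-x, the embryonic alpha-like globin, was higher by 0.70 ± 0.17 (adjusted p = 5.30e-03), and Hbb-y, the other embryonic beta-like globin, by 0.10 ± 0.08 (adjusted p = 0.486). Hbb-y read 14.30 to 14.52 across these 9 arrays, close to the highest value of any probe set, 14.79. Hba-a1, an adult alpha globin, read a mean of 3.47 and 3.49, near the lowest value of any probe set, 2.29. Whether its transcript was absent or its probe set unresponsive was not tested, and probe sets with more than 1 gene symbol were not used.

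Other genes of red cells and platelets that are not on the list stood beside these, and they are named because of their values. They were Car2 (1.86), a carbonic anhydrase, Trim10 (1.79), Kel (1.69), the Kell blood group protein, Slc25a37 (1.62), the mitochondrial iron importer, Icam4 (1.61), Nfe2 (1.60), Rhd (1.51) and Tal1 (1.19). Ppbp, a platelet chemokine, was higher by 1.51 ± 0.22. On the list, Ermap (1.78), Slc4a1 (1.43), the anion exchanger of the red cell, Alas2 (1.38), the first enzyme of erythroid haem synthesis, and Epb42 (1.23) were called. Genes of macrophages were not called, 0 of 18 by limma. Their medians were 0.17 in the offset comparison, 0.32 at E11.5 and 0.27 at E12.5. At an unadjusted p under 0.05 in the offset comparison, 6 of the 18 were higher and 1 lower, against 12.4% and 8.09% of all genes.

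**Figure D2:**
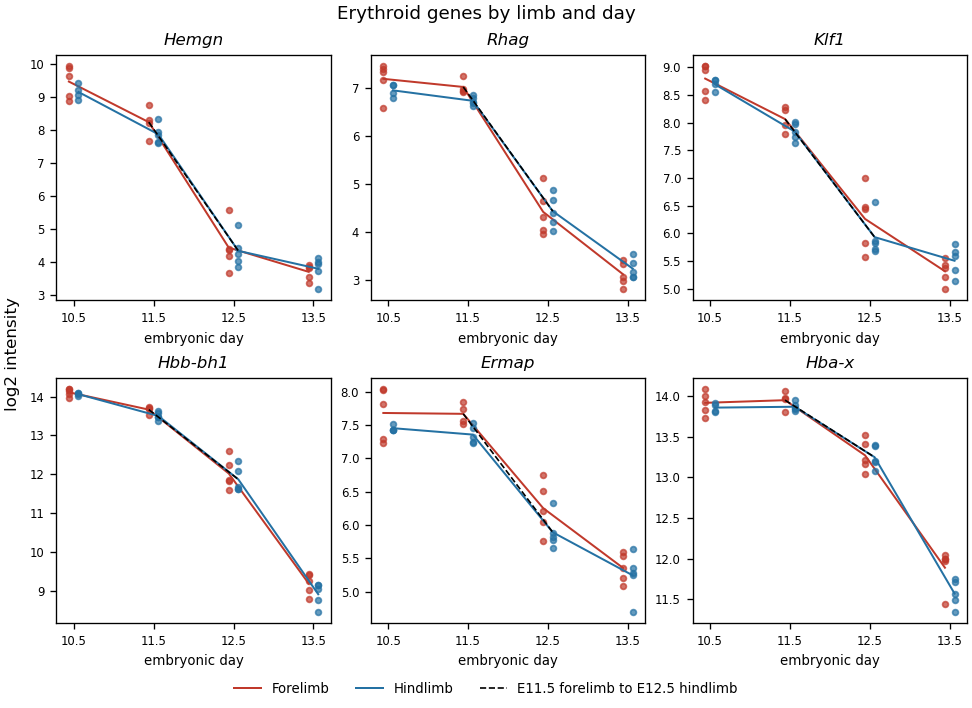
Log2 intensity (vertical axis) of 6 erythroid genes by embryonic day in fore limb (red) and hind limb (blue); points are arrays, lines join group means, and the dashed line joins the E11.5 fore limb to the E12.5 hind limb. The red and blue lines run close together and fall, so that the dashed line follows the day, from 8.24 to 4.35 for Hemgn and from 13.67 to 11.87 for Hbb-bh1.

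The promoters of the erythroid list were searched because 8 of its 12 genes were called in the same direction. GATA factors, with GATA1 the main one in red cells, are known to bind short motifs that hold the letters GATA. The search used AGATAA and TGATAA on both strands in the 250 bases before the start of each gene, from RefSeq promoters of build GRCm38.p6. Promoters were found for 10 of the 12 erythroid genes, and 9 of the 10 held a match, as did 16.6% of all 32851 promoters. The gene without a match was Gata1 itself. Hba-x, Hba-a1 and Hbb-y held a match and were not called, so a match did not set the called genes apart. The list was chosen as erythroid, so its share of matches describes the list and is no result of the comparison. All 6 of the called genes with a promoter held a match, namely Alas2, Epb42, Hemgn, Rhag, Ermap and Klf1. The 3 with the largest differences are printed, 5′ to 3′ on the strand of the gene, with the match in capitals (TTATCA is TGATAA on the other strand). Hemgn lies on chr4:46404184-46404433 (minus strand), Rhag on chr17:40810899-40811148 (plus strand) and Klf1 on chr8:84901732-84901981 (plus strand). The match begins 13, 31 and 80 bases before the start in this order. A match is a description of the sequence and no evidence of binding in these limbs.
Hemgn: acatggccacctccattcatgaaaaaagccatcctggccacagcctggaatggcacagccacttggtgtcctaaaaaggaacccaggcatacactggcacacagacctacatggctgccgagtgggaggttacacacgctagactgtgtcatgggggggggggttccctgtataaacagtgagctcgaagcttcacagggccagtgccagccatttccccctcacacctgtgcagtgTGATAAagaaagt
Rhag: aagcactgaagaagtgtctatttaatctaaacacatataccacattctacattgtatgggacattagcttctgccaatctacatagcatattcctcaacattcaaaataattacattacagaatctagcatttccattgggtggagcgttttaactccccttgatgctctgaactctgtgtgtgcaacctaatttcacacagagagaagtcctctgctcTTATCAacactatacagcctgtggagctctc
Klf1: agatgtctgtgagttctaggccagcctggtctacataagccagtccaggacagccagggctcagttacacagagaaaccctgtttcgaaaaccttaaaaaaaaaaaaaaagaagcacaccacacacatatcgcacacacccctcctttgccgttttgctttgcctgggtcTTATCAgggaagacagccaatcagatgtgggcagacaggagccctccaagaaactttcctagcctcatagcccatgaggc

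The 7 genes that were higher in the E12.5 hind limb and called in neither same-day comparison were Pcp4, Postn, Pmel, Thbs2, Hspa1b, Esm1 and Tafa2. Postn, a matrix protein of fibrous tissue, read 9.22, 8.97, 9.25 and 8.92 in the E11.5 fore limbs against 9.90, 10.72, 10.66, 10.23 and 10.44 in the E12.5 hind limbs, a difference of -1.30 ± 0.22 (adjusted p = 9.84e-05). Its limb differences within a day were 0.33 and 0.02. Thbs2, a thrombospondin of connective tissue, was lower by -1.18 ± 0.14 (adjusted p = 3.14e-08), with -0.03 and 0.05 within the days. Both genes followed the day.

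Pcp4, a small protein that binds calmodulin, read 6.06, 6.11, 6.12 and 6.10 against 6.78, 8.37, 7.96, 8.05 and 7.89. Its difference of -1.71 ± 0.25 (adjusted p = 5.42e-06) joined a limb difference of -0.88 at E12.5 (adjusted p = 0.0103) to a step of -0.83 in the fore limb (adjusted p = 0.0215). At E13.5 it was called as lower in the fore limb (-1.18). Pmel, a protein of pigment cell organelles, was lower by -1.29 ± 0.22, and its call was lost without E11.5 fore-limb replicate 1. Pmel was the 1 gene called of 13 measured for neural crest, nerve and Schwann cells, a list with a median of -0.47. Dct, an enzyme of melanin synthesis and the lowest gene of that list at -1.33, missed the threshold.

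Within a day, genes of differentiated muscle were higher in the fore limb, and against the older hind limb no such difference was detected. Of 30 measured genes of the contractile apparatus, 6 were called higher at E11.5 and 4 at E12.5, with medians of 0.96 and 0.99. In the offset comparison limma called 0 of the 30, with a median of -0.05. At an unadjusted p under 0.05 there were 0 higher and 1 lower, against 12.4% and 8.09% of all genes. The hind limb rose between the days, with 15 of the 30 called and a median step of -1.14.

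Neb, the giant actin-binding protein of the thin filament, showed the largest such change. It read 5.95, 6.96, 7.46 and 7.12 in the E11.5 fore limbs and 6.02, 7.34, 7.13, 6.82 and 7.06 in the E12.5 hind limbs, so that the groups overlapped. The E11.5 hind limbs read 4.98, 5.31, 3.72, 3.52 and 4.56. The difference was 2.45 at E11.5 (adjusted p = 8.73e-09) and -0.00 ± 0.26 in the offset comparison (adjusted p = 0.996). Actn2, the alpha-actinin of the Z line, went from 1.90 at E11.5 to -0.25 ± 0.30, Casq2, a calcium store protein of the sarcoplasmic reticulum, from 1.43 to -0.07 ± 0.25, and Tnnt1, a slow troponin T, from 1.49 to 0.10 ± 0.23.

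The regulators of skeletal muscle, 16 measured, had medians of 0.39 at E11.5, 0.31 at E12.5 and 0.18 in the offset comparison. At an adjusted p under 0.05, 6 were higher on each day, against 3.17% of all genes at E11.5 and 6.02% at E12.5. In the hind-limb step 8 of the 16 were lower at E11.5 at that threshold, against 1317 of all 18194 genes. Chrna1, a subunit of the muscle acetylcholine receptor, was called at both days (1.39 and 1.18) and read 0.26 ± 0.14 in the offset comparison (adjusted p = 0.289). Lbx1, a homeobox gene of migrating muscle precursors, was higher in the E11.5 fore limb by 0.56 ± 0.10 (adjusted p = 3.86e-04), short of 2-fold, with -0.08 at E11.5 and -0.03 at E12.5. Of the 16, limma called 0 in the offset comparison, and 2 were higher at an adjusted p under 0.05, against 4.07% of all genes. At an unadjusted p under 0.05 there were 3 higher and 1 lower, against 12.4% and 8.09% of all genes. Myod1, the first of the myogenic factors named for the lineage, read 0.21 ± 0.13 (adjusted p = 0.375).

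Cartilage, tendon, joint and matrix genes went further and turned in sign as lists. The median of 27 cartilage genes was 0.44 at E11.5, 0.29 at E12.5 and -0.21 in the offset comparison, that of 14 tendon genes 0.41, 0.50 and -0.19, and that of 22 genes of fibrous matrix and basement membrane 0.30, 0.32 and -0.29. Joint genes, 10 measured, had medians of 0.29, 0.13 and -0.15. Over all genes the medians were -0.00, 0.01 and 0.01. Within the offset comparison 25 of the 27 cartilage genes were below 0, against 47.5% of all genes, yet limma called 0 of them. At an adjusted p under 0.05, 4 of the 27 were lower, against 2.03% of all genes, and at an unadjusted p under 0.05, 10 were, against 8.09%. The turn is therefore one of the list medians and of few single genes. In the matrix list 1 gene was called (Postn) and 7 were lower at an adjusted p under 0.05.

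Matn1, a matrilin of the cartilage matrix, read 5.16, 6.13, 6.62 and 6.23 in the E11.5 fore limbs and 5.21, 6.82, 7.10, 7.38 and 6.91 in the E12.5 hind limbs. It was higher in the fore limb by 1.71 at E11.5 and 1.52 at E12.5, and the offset difference was -0.65 ± 0.30 (adjusted p = 0.202). Ogn, a small proteoglycan also called mimecan, went from 1.74 at E11.5 to -0.44 ± 0.17 (adjusted p = 0.135). Acan, the aggrecan of cartilage, went from 1.17 to -0.20 ± 0.24. The lowest hind limb for Neb, Matn1 and Ogn was replicate 1, the array that lay toward the younger day.

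**Figure D3:**
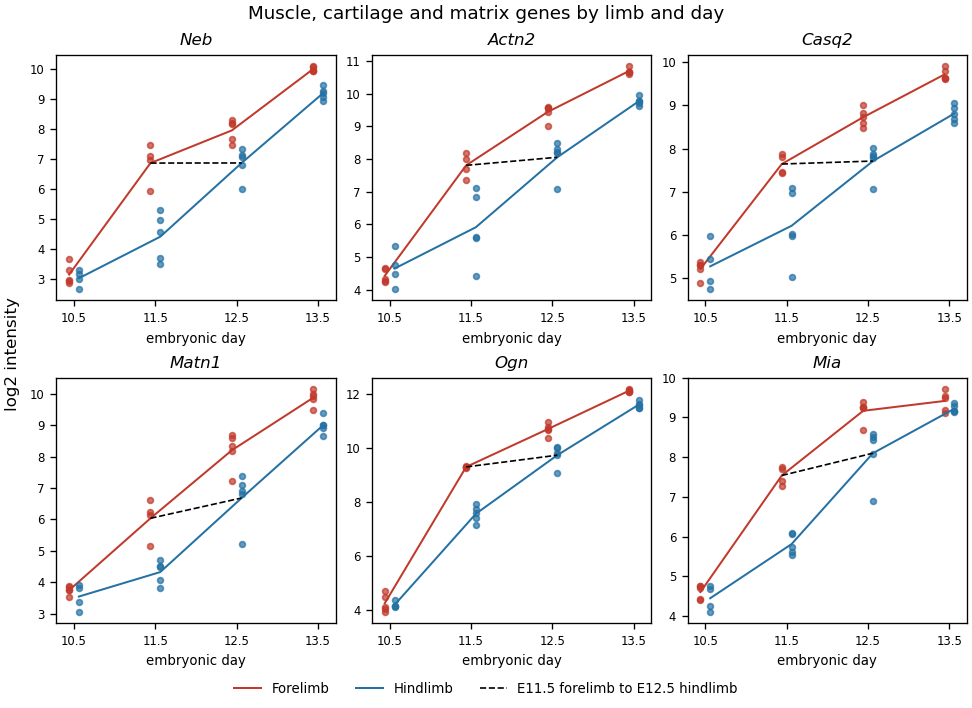
Log2 intensity (vertical axis) of 3 muscle genes (top) and 3 genes of cartilage and matrix (bottom) by embryonic day in fore limb (red) and hind limb (blue); points are arrays, lines join group means and the dashed line joins the groups of the offset comparison. The fore limb is higher at E11.5 and E12.5, and the dashed line is flat for Neb (-0.00) and Casq2 (-0.07) and rises for Matn1, Ogn and Mia.

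Over the whole table, 133 genes were called at E11.5, at E12.5 or at both, and 116 of them were not called in the offset comparison. The loss was uneven. Of 113 genes higher in the fore limb at either day 104 were not called, while of 20 lower genes 12 were not. All 8 genes called lower in the fore limb at E12.5 were called in the offset comparison as well. The 104 genes had a median of 0.96 at E11.5, 1.14 at E12.5 and 0.00 in the offset comparison, where 52 lay below 0 and 52 above, from -1.24 to 1.00. Because they were chosen for differences in comparisons that share arrays with the offset, these medians are a description.

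Several of these genes stayed close to the threshold. Cited1, a transcriptional co-activator, read 1.00 ± 0.13 (adjusted p = 8.89e-07), just under 2-fold, beside 1.24 at E11.5 and 1.15 at E12.5. Hoxd8 read 0.92 ± 0.11 beside 0.91 and 1.01, and Hoxb4 0.90 ± 0.17 beside 0.85 and 1.10. On the side of the hind limb, Hoxb9 read -1.01 ± 0.20 (adjusted p = 1.18e-03) beside -1.20 and -0.71. Among 15 measured anterior Hox genes 2 were called in the offset comparison (Hoxb2 and Hoxb5), against 0.192% of all genes called higher. At an adjusted p under 0.05, 6 of the 15 were higher, against 4.07% of all genes. Above 0 lay 13, with a median of 0.50, against 52.5% of all genes and a median of 0.01. At the threshold, Acp5 (1.01), Cited4 (1.01) and Dner (1.02) were just inside, and Hoxd10 (1.00), Cited1 (1.00) and Nog (-0.97) just outside.

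The 12 genes that were lower in the fore limb at E11.5 and lost that call included 2 genes of posterior bud signalling. Shh, the hedgehog ligand of the zone of polarizing activity, read 5.56, 5.04, 4.63 and 4.95 in the E11.5 fore limbs, 6.82, 6.53, 6.27, 6.78 and 6.13 in the E11.5 hind limbs and 4.88, 4.59, 4.53, 4.66 and 4.65 in the E12.5 hind limbs. It was lower in the fore limb by -1.46 at E11.5 (adjusted p = 6.56e-09) and differed by 0.38 ± 0.16 (adjusted p = 0.138) in the offset comparison. The hind-limb step was 1.85 (adjusted p = 2.30e-12). Shh was 1 of 4 genes, 0.022% of all, whose limb difference at E11.5 was called lower than that at E12.5 (-1.35, adjusted p = 6.08e-04). Grem1, the BMP antagonist that links Shh to the ridge, went from -1.54 at E11.5 to -0.00 ± 0.28, with fore limbs spread from 6.04 to 8.44. Igf1, a growth factor, kept its sign, with -1.29 at E11.5 and -0.90 ± 0.16 (adjusted p = 2.10e-04) in the offset comparison.

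At the same threshold in both comparisons, 1 gene flipped. Egfl6, which encodes a secreted protein with EGF-like repeats, was higher in the E11.5 fore limb than in the hind limb of the same day and lower than in the hind limb a day older. It read 7.59, 7.62, 8.10 and 7.98 in the E11.5 fore limbs, 6.04, 6.50, 6.29, 6.06 and 6.84 in the E11.5 hind limbs and 8.23 in E12.5 hind-limb replicate 1 and 9.22 to 9.70 in the other 4. No array of the 3 groups overlapped with another group. The difference was 1.48 ± 0.23 at E11.5 (adjusted p = 1.38e-05) and -1.38 ± 0.23 in the offset comparison (adjusted p = 5.95e-05). The hind-limb step of -2.85 (adjusted p = 6.93e-13) is the test of that change. At E12.5 the limbs differed by 0.12 (adjusted p = 0.778). Fitted on the 9 arrays of the offset comparison alone, Egfl6 was no longer called (adjusted p = 0.0094). Without E12.5 hind-limb replicate 1, Col8a2 and Nog flipped too, which made 3.

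With an adjusted p under 0.05 and no limit on the fold, the offset comparison called 741 genes higher (4.07%) and 370 lower (2.03%), the E11.5 comparison 577 (3.17%) and 218 (1.2%), and the E12.5 comparison 1096 (6.02%) and 713 (3.92%). Of the 1111 genes of the offset comparison, 79 were called in the same direction at both days and 74 were called in the opposite direction at 1 day or both. The flips ran mostly one way: 60 of the 74 were lower in the E11.5 fore limb than in the older hind limb and higher at 1 or both of the same-day comparisons, 17 of them against both days. The other 14 ran the opposite way, 4 against both days.

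Among the 60 were genes of forming cartilage, joints and matrix. Nog, which encodes the BMP antagonist noggin of condensing cartilage, read 6.07, 6.37, 6.31 and 6.23 in the E11.5 fore limbs and 6.07, 7.60, 7.24, 7.71 and 7.47 in the E12.5 hind limbs, a difference of -0.97 ± 0.19 (adjusted p = 8.52e-04) against 1.03 at E11.5 and 0.67 at E12.5. Hind-limb replicate 1 alone lay at the fore-limb level. Gdf5, a BMP-family ligand of the joint interzone, differed by -0.87 ± 0.19 (adjusted p = 3.06e-03), beside 0.82 at E11.5 and 0.00 at E12.5. Col8a2, a short-chain collagen, differed by -0.99 ± 0.21 beside 1.32 and 0.85, and Aspn, asporin of the matrix, by -1.05 ± 0.24 beside 0.85 and 1.33. Of all genes 0.33% flipped in this direction. From the lists, 4 of 27 cartilage genes did (Col9a3, Cytl1, Hapln1 and Scrg1) and 4 of 22 matrix genes (Col5a1, Col5a2, Col6a2 and Lox). Hapln1 (-0.64) flipped against E12.5 alone (0.87), and at E11.5 it was lower in the fore limb too (-0.63, adjusted p = 0.0202). The joint (Gdf5), tendon (Dcn), BMP and TGF beta (Nog), endothelium (Lyve1), hedgehog (Hhip) and osteoblast (Runx3) lists had 1 each. Of the 30 contractile muscle genes 0 flipped, since none had passed this threshold in the offset comparison.

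Among the 14, 0.0769% of all genes, were genes of the early bud. Fgf8, the growth factor of the apical ectodermal ridge, read 7.20, 6.81, 6.62 and 6.44 in the E11.5 fore limbs, 8.05, 7.74, 7.56, 7.51 and 7.40 in the E11.5 hind limbs and 6.43, 5.88, 5.55, 5.51 and 5.63 in the E12.5 hind limbs. The 3 groups did not overlap. The difference went from -0.89 at E11.5 (adjusted p = 0.0205) to 0.97 ± 0.24 (adjusted p = 8.98e-03). Sall4, a zinc-finger factor of early limb buds and stem cells, read 0.56 ± 0.15 beside -0.87 and -0.73, and Trim71, a developmental timing gene that lin-28 and let-7 control in worms and mice, 0.58 ± 0.17 beside -0.78 and -0.49. Bhlha9, a bHLH factor of the ridge, read 0.45 ± 0.13 beside -0.51 and -0.47. The last 3 are flips against both days, each of less than 2-fold.

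**Figure D4:**
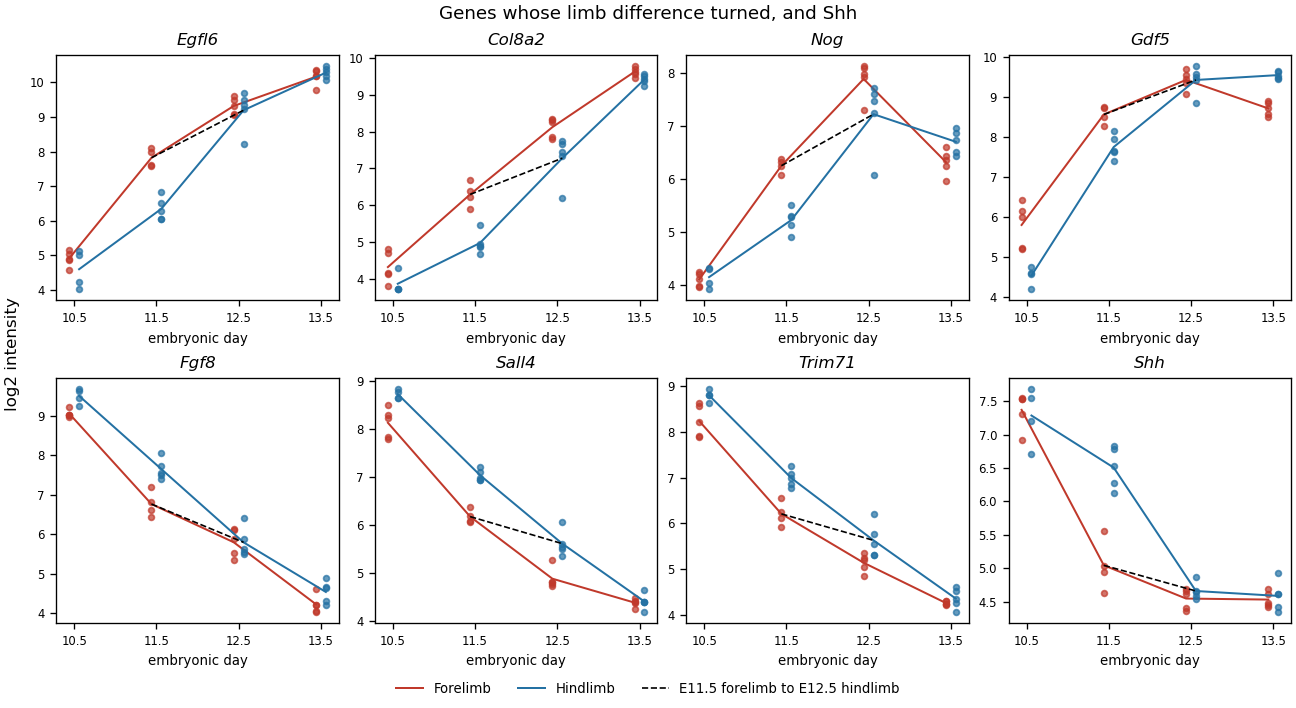
Log2 intensity (vertical axis) of 7 genes whose limb difference turned in sign, and of Shh, by embryonic day in fore limb (red) and hind limb (blue); points are arrays, lines join group means and the dashed line joins the groups of the offset comparison. Genes that rise with the day (Egfl6, Col8a2, Nog, Gdf5) are higher in the fore limb at E11.5 and rise along the dashed line, and genes that fall (Fgf8, Sall4, Trim71) do the reverse, while for Shh the offset difference is 0.38.

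The growth arrest and imprinted growth list, 17 genes, also turned in sign, with medians of 0.21 at E11.5, 0.26 at E12.5 and -0.21 in the offset comparison. Limma called 0 of the 17, with 1 higher and 3 lower at an adjusted p under 0.05 and 1 higher and 5 lower at an unadjusted p under 0.05. For this list and those that follow, the shares of all genes at an unadjusted p under 0.05 were 12.4% higher and 8.09% lower. At an adjusted p under 0.05 they were 4.07% and 2.03%. Of 28 transcription factors of limb mesenchyme limma called 0, with 5 higher at an adjusted p under 0.05, 12 higher and 5 lower at an unadjusted p under 0.05, and a median of 0.19. Of 16 genes of the apical ectodermal ridge it called 0, with 5 higher at an adjusted p under 0.05, 7 higher and 0 lower at an unadjusted p under 0.05, and a median of 0.19. The mitosis and replication list, 30 genes, had a median of 0.10 in the offset comparison, -0.09 at E11.5 and -0.07 at E12.5. Stmn2, a microtubule protein of growing axons and the 1 gene called of 19 neuronal genes, was higher by 1.17 ± 0.21, and its call was lost without E11.5 fore-limb replicate 1, 2 or 3 or E12.5 hind-limb replicate 2, 3 or 4. That list had a median of -0.06. None of 5 sex-linked genes was called by limma, and 0 passed an unadjusted p under 0.05, although the groups differed in make-up, with Xist high in 1 of 4 fore limbs and 2 of 5 hind limbs.

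**Figure D5:**
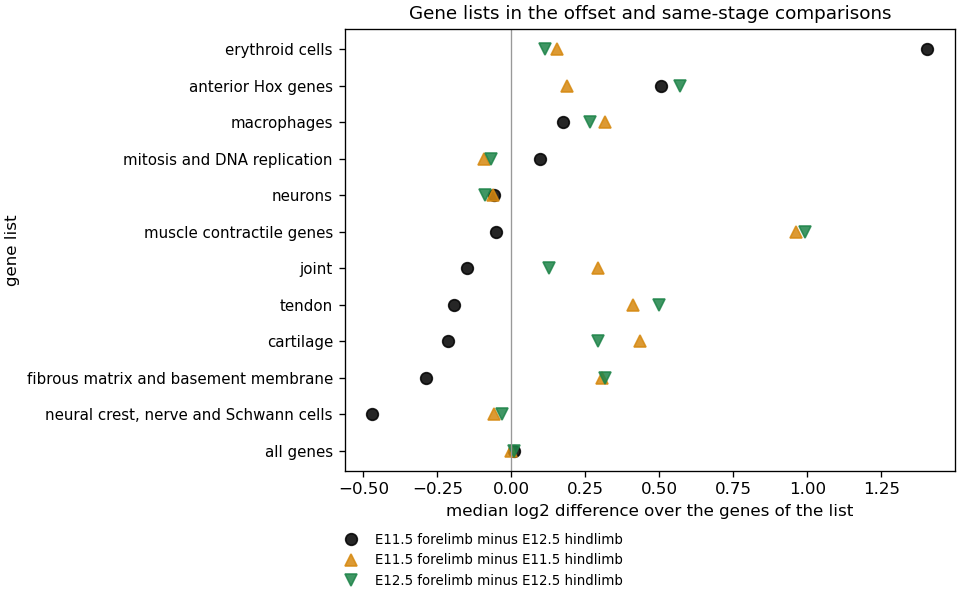
Median log2 difference, fore limb minus hind limb (horizontal axis), over the genes of 11 lists and over all genes, in the offset comparison (black circles), at E11.5 (orange triangles) and at E12.5 (green triangles). The black circle stands far to the right for erythroid genes (1.41), near 0 for contractile muscle genes (-0.05, against 0.96 and 0.99) and left of 0 for joint, tendon, cartilage and matrix genes, whose triangles lie right of 0.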

How the data were processed

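Total RNA of single embryos' limb buds was hybridised to Affymetrix mouse whole-genome arrays. The deposited values are probe set intensities on a linear scale, which the authors had background-corrected, normalized and summarised with RMA, and their log2 was taken here. Of 45101 probe sets, 34958 with 1 gene symbol in the platform annotation were averaged on the log2 scale to 18194 genes, and no dim gene was left out. Groups came from the sample titles. A linear model was fitted to all 51 arrays in 14 groups with limma 3.58.1 (R 4.3.3, lmFit and eBayes), with Benjamini-Hochberg adjustment over all genes in each comparison. Genes named by rule were the 12 highest and 12 lowest called genes with arrays apart, up to 10 persisting genes each way and 10 flipped, the limb type list, and up to 3 called genes of each other list. The other genes named were chosen after their values were seen. Members and gene lists were chosen with earlier results of these data known. On simulated data, 48 of 100 genes changed 2-fold and 100 of 100 changed 4-fold were called in the offset comparison, and 0 of 17994 unchanged genes. A 2-fold change lies at the fold limit itself, and 99 of those 100 genes passed an adjusted p under 0.05 in limma in the right direction. The number of arrays limits the precision. Alternatives were another normalization, centring, probe set choice, dim-gene filter, prior, threshold, limb arrays only, array weights, each comparison fitted alone, a replicate block and leaving out each array.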

Additional observations from a re-analysis of the deposited data

Results flagged for a closer look

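The limb difference changed between E11.5 and E12.5 past the threshold, by limma's interaction term, in 4 genes. The E11.5 minus the E12.5 difference was -1.50 for Hapln1, -1.66 for Sbspon, -1.49 for Serpinb7 and -1.35 for Shh.

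Single arrays stood apart in 14 of 102 groups of values tested by Dixon's criterion over 51 genes, where chance gives about 1 in 20. In 8 cases the array was E12.5 hind-limb replicate 1. It was highest for Klf1 (6.57) and Kel (6.65), as for Afp (4.51) and Ccnb2 (11.18), and lowest for Hhip (4.91), Nog (6.07), Thbs2 (5.83) and Lyve1 (4.40). E12.5 hind-limb replicate 2 was lowest for Pitx1 (10.42), replicate 3 for Nostrin (4.82) and replicate 4 for Hoxc5 (5.56). E11.5 fore-limb replicate 4 was lowest for Calb2 (7.37). E11.5 fore-limb replicate 1 was lowest for Pmel (5.25) and highest for Xist (10.47).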

How the results depend on the processing

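No named gene changed direction under an alternative run in which it was called, or where it was called in the main fit. The sign of values called in neither was not checked. List medians were recomputed only under quantile normalization, median centring and the probe set of highest mean. Medians near 0 could change sign there, as that of all genes in the offset comparison did under median centring (0.01 to -0.02). Over the single genes, 14337 values kept their side of the threshold, 344 fell short of it and 304 passed it. Fitted on its own 2 groups, the E11.5 comparison called 23 higher and 8 lower, the E12.5 comparison 53 higher, and the hind-limb step 63 lower. In that fit the offset calls of Dner, Egfl6, Esm1, Hspa1b, Pcp4, Postn, Ppbp, Stmn2 and Thbs2 were lost. Quantile normalization left 4 persisting genes higher in the fore limb. Flipped genes numbered 2 under median centring (Chodl and Egfl6), 2 with the probe set of highest mean (Aspn and Egfl6), 3 at an adjusted p under 0.05 with 2-fold, and 6 with array weights. The probe set of highest mean gave 88 genes higher at E11.5. At an adjusted p under 0.05 with no fold limit, the offset called 741 higher and 370 lower, E11.5 577 and 218, E12.5 1096 and 713, the hind-limb step 1728 and 1317, and the fore-limb step 691 and 1188, with 65 and 14 persisting and 74 flipped. The cause was not tested, apart from the looser threshold.

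Leaving out 1 array at a time gave 33 to 38 higher and 14 to 29 lower in the offset comparison, 41 to 69 and 14 to 20 at E11.5, 59 to 96 and 6 to 9 at E12.5, 42 to 56 and 84 to 128 in the hind-limb step, and 25 to 31 and 93 to 135 in the fore-limb step. Persisting genes numbered 6 to 8 higher and 6 to 6 lower, and flipped genes 1 to 3. The 29 lower genes came without E12.5 hind-limb replicate 1. Flipped genes numbered 3 without that array or E12.5 fore-limb replicate 1, and 2 without E11.5 hind-limb replicate 1 or 4.

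The offset groups come from different litters, so shared replicate numbers do not pair their arrays. Same-numbered arrays correlated in their deviations at 0.011 to 0.376. For fore-limb replicates 1, 2 and 4 the hind-limb array of the same number correlated highest, and the reason was not tested. Limbs of the same day share a litter, but the labels do not say that a number marks 1 embryo. Their correlations were -0.110 to 0.128 at E11.5 and 0.071 to 0.347 at E12.5, where same-numbered arrays were alike in Xist in 5 of 5 pairs. At E11.5 replicate 4 read Xist at 3.91 in the fore limb and 9.86 in the hind limb, so there this number does not mark 1 embryo. The other E11.5 pairs were alike in Xist. With the replicate number as a block on the groups compared, 7 genes were higher and 5 lower in the offset comparison, 1 and 9 at E11.5, 62 and 7 at E12.5, 23 and 21 in the hind-limb step, and 12 and 71 in the fore-limb step.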
